A study of Homo sapiens with 10 samples.

Results

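Splanchnic mesoderm (MESO) and pre-neural crest cells (NCSC) derived from the human embryonic stem cell line WA09 (hESC) were compared gene by gene. MESO stands for the label splanchnic mesoderm, and NCSC for the label pre-neural crest. A gene entered the comparison where its symbol was present in both deposited tables on chromosomes 1 to 22 or X and at least 1 of the 4 values was 1 FPKM or more, FPKM being fragments scaled to transcript length and to all mapped fragments. This left 13469 genes of 21433 symbols found in both tables. Such symbols numbered 21632 in the MESO table alone and 21622 in that of NCSC.

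RNA carrying poly-A tails was sequenced from 2 libraries per cell type, 6 libraries for the 3 cell types used here out of 10 libraries in all. All cells were WA09 grown on matrigel, and each medium held 8 ng/mL FGF, 10 ng/mL heregulin and 200 ng/mL IGF-I. MESO were seeded at 50000 cells/cm2 and grown for 4 days with the further addition of 100 ng/mL BMP-4, 25 ng/mL Wnt-3a and 10 ng/mL activin A. NCSC were seeded at 90000 cells/cm2 and grown for 6 days without activin A, but with BIO, which blocks the kinase GSK3, and SB431542, which blocks the activin and NODAL receptors. hESC were seeded at 50000 cells/cm2 and grown for 4 days with activin A at 10 ng/mL and neither added WNT nor BMP. Time, density, activin A, SB431542, BMP-4 and the route of WNT activation thus differed together between MESO and NCSC. Their parts in any difference cannot be told apart. All cells came from 1 line, and the labels do not say whether the 2 libraries of a cell type were separate cultures.

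WNT ligands and inhibitors of GSK3 both stabilise beta-catenin, which enters the nucleus and acts with the transcription factors TCF and LEF1. In the embryo, WNT and BMP signalling together pattern the primitive streak and the lateral and splanchnic mesoderm, which forms heart and gut wall. WNT signalling with modest BMP signalling at the edge of the neural plate induces the neural plate border, from which neural crest cells later leave by an epithelial to mesenchymal transition (EMT).

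The deposited tables hold 1 FPKM value per cell type, each set against hESC, so the spread over libraries is unknown and MESO could not be tested against NCSC. The change of a gene is its log2(FPKM + 1) in the derivative minus that in hESC of the same table, centred on the median over all genes. The difference is the MESO change minus the NCSC change, so a positive difference means higher in MESO. "Rose" and "fell" are used for genes whose q-value against hESC was below 0.05 in the authors' deposited table. A difference of at least 1, a factor of 2 on the FPKM + 1 scale, served as a limit of size without a test. Depth is unknown from these files, and a change on this scale understates that of weakly expressed genes. In bulk RNA fewer cells of a type and less RNA per cell cannot be told apart.

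Both tables quantify the same hESC libraries, which shows how far values of 1 sample moved between tables. The hESC values differed by a median of 0.09 in absolute log2 units, 245 genes (1.82%) differed by 1 or more, and 95% differed by less than 0.38. The absolute difference between MESO and NCSC had a median of 0.55, and its central 90% ran from -1.62 to 1.97. Before centring the median change was 0.06 in MESO and -0.22 in NCSC, a shift of 0.27 that moves every difference by that amount if it is left in. Where a pair of hESC values is printed, the MESO table's comes before the NCSC table's.

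The labelled identities were checked against 4 markers. HAND1, a transcription factor of lateral and cardiac mesoderm (hg19 chr5:153854531-153857824), was at 758 FPKM in MESO and 0.0327 FPKM in NCSC, with 1.27 and 1.39 FPKM in hESC. PAX3, a neural plate border and crest factor (chr2:223064605-223169936), was at 2.06 FPKM in MESO and 18.6 FPKM in NCSC, with 0.0165 and 0.0169 FPKM in hESC, and it rose in both. SNAI2, an EMT factor of crest and mesoderm, was at 80.9 FPKM in MESO and 11.7 FPKM in NCSC, with 0.243 and 0.286 FPKM in hESC. LEF1, both a partner of beta-catenin and a WNT target, was at 24.8 FPKM in MESO and 24.6 FPKM in NCSC, with 0.315 and 0.346 FPKM in hESC. HAND1 was thus high in MESO alone, PAX3 was the higher in NCSC, SNAI2 the higher in MESO, and LEF1 was at nearly the same level. HAND1 alone does not settle the label of MESO. Genes of trophoblast and amnion were also high in MESO, among them GABRP at 229.8 FPKM, CGA at 95.3 FPKM and VTCN1 at 44.9 FPKM. ELF5, CGB, ANXA8 and PSG1 of the same list were below 1 FPKM in every column. POU5F1, the central pluripotency factor, fell in both, to 19.9 FPKM in MESO and 17.1 FPKM in NCSC, against 217 and 221 FPKM in hESC.

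Further markers, early and late, limit how far the labels carry. SOX10, a factor of migrating neural crest, was at 0.365 FPKM in MESO and 2.91 FPKM in NCSC, against 2.53 and 2.57 FPKM in hESC; its q-value in NCSC was 0.765 in the authors' deposited table. FOXD3, an early crest specifier that stem cells also express, was at 0.0312 FPKM in MESO and listed at 0 in NCSC, against 10.3 and 10.7 FPKM in hESC. TFAP2A, a factor of the border and of surface ectoderm, was at 38.8 FPKM in MESO and 0.0463 FPKM in NCSC. The border genes PAX7 and ZIC1 were below 1 FPKM in every column, at 0.0512 and 0.116 FPKM in NCSC. NCSC therefore carried PAX3 and SNAI2 without a rise in SOX10, FOXD3 or TFAP2A.

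**Figure D1:**
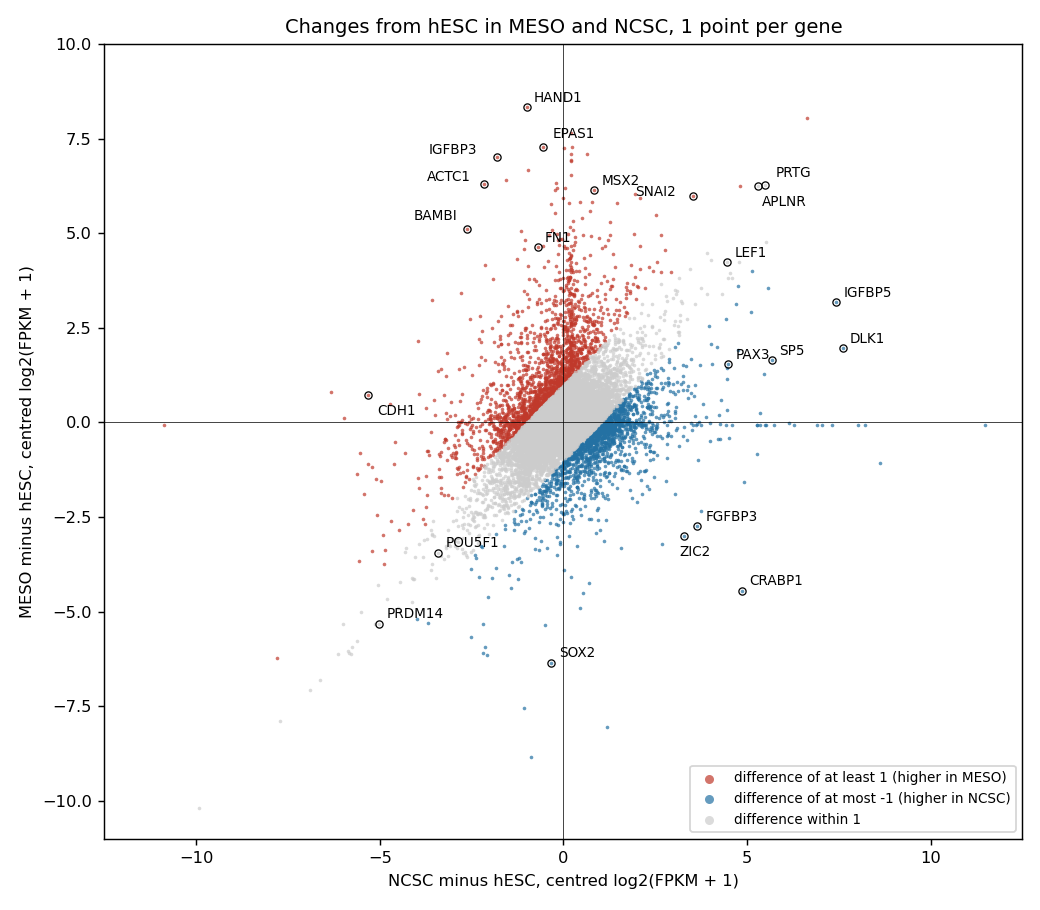
Change from hESC of 13469 genes in MESO (vertical axis) and in NCSC (horizontal axis), each as log2(FPKM + 1) centred on its median, 1 point per gene; red points have a difference of at least 1, blue points of at most -1 and grey points lie between, and named genes are circled. HAND1 and BAMBI lie at the top left, CRABP1 at the lower right, LEF1, PRTG and APLNR near the diagonal at the upper right and POU5F1 near it at the lower left.

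Of the 13469 genes, 1904 (14.1%) had a difference of at least 1 and were higher in MESO, and 1676 (12.4%) had a difference of at most -1 and were higher in NCSC. The genes higher in MESO made up 53.2% of those past the limit, and 71.8% (2804 against 1102 genes) when the changes were not centred. Just inside the limit lay C17orf70 at 1.00006 and EEF2 at -1.00035, and just outside it SUMF1 at 0.999915 and AGPHD1 at -0.999866. By the q-values of the authors' deposited tables, 1262 genes (9.37%) rose and 739 (5.49%) fell in MESO, and 1370 (10.2%) rose and 2734 (20.3%) fell in NCSC. In both cell types 357 genes (2.65%) rose and 441 (3.27%) fell. Opposite calls were made for 158 genes (1.17%) that rose in MESO and fell in NCSC and 45 (0.334%) that fell in MESO and rose in NCSC. Both comparisons use the same hESC libraries, so these counts are not independent of each other. The shares over all genes are the background for the counts of members that follow. In any list, members below 1 FPKM in hESC passed the minimum through a derivative. Their part of a count has no weight of its own.

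The genes furthest apart included transcription factors and secreted or structural proteins. At the MESO end, after HAND1 with a difference of 9.32, stood IGFBP3, which binds insulin-like growth factors, at 620.1 FPKM in MESO and 0.234 FPKM in NCSC (difference 8.80). ACTC1, the cardiac muscle actin, was at 1159 FPKM in MESO and 2.0 FPKM in NCSC, against 13.2 and 14.5 FPKM in hESC, and rose in MESO while it fell in NCSC. EPAS1, the oxygen-regulated factor HIF-2 alpha, was at 316 FPKM in MESO and 0.163 FPKM in NCSC. At the NCSC end stood CRABP1, which binds retinoic acid in the cytoplasm (hg19 chr15:78632634-78640573), at 3.87 FPKM in MESO and 2670.5 FPKM in NCSC, against 101 and 105 FPKM in hESC (difference -9.32). SOX2, which neural progenitors share with stem cells, was at 1.97 FPKM in MESO and 167 FPKM in NCSC, against 231 and 244 FPKM in hESC. SOX2 thus did not pass in NCSC and fell in MESO.

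The first ranks also hold rows that cannot be read as gene expression with confidence. Of the 12 highest differences 4 passed the authors' q-value in neither table, and of the 12 lowest 10 did, among them 7 microRNA host or precursor symbols, which a poly-A library measures poorly. MIR302D was listed at 0 in MESO and in NCSC, and at 0 and 2176 FPKM in the hESC columns, so its difference of 10.81 comes from the hESC columns alone. The genes described in the rest of the text had hESC values that lay within 1 on the log2 scale. EFNB1, EGR1, ESRP1, LFNG, PRDM14 and WNT8A had several rows in the NCSC table, of which 1 was used.

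A group of genes rose in both derivatives. Of the 357 genes that rose in both, 242 (1.8% of all genes) differed by less than 1, 78 (0.579%) by at least 1 in favour of MESO and 37 (0.275%) by at least 1 in favour of NCSC. PRTG, protogenin, a membrane protein of gastrulating embryos, was at 130 FPKM in MESO and 62.6 FPKM in NCSC, against 0.612 and 0.658 FPKM in hESC. APLNR, the apelin receptor of nascent mesoderm, was at 143 FPKM in MESO and 61.5 FPKM in NCSC, against 0.823 and 0.841 FPKM in hESC. WLS, which carries WNT ligands to the cell surface, was at 270.4 FPKM in MESO and 84.8 FPKM in NCSC, against 2.40 and 2.55 FPKM in hESC. TNFRSF19, a WNT target also called TROY, was at 29.4 FPKM in MESO and 37.1 FPKM in NCSC, with less than 1 FPKM in either hESC column. DUSP6, a phosphatase that dampens ERK, was at 55.0 FPKM in MESO and 38.6 FPKM in NCSC, against 1.73 and 1.85 FPKM in hESC. The genes that rose most in both took in a WNT carrier, a WNT target and an ERK feedback gene, beside the WNT effector LEF1. All of these were weakly expressed in hESC, which a ranking by the size of the rise favours.

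The genes that fell most in both included stem cell genes. DPPA5 was at 0.840 FPKM in MESO and listed at 0 in NCSC, against 70.1 and 73.8 FPKM in hESC. PRDM14, a repressor that guards the pluripotent state, was at 0.843 FPKM in MESO and 1.03 FPKM in NCSC, against 69.6 and 75.6 FPKM in hESC. Of 22 pluripotency genes measured, 18 fell in MESO and 18 fell in NCSC, and none rose in either. The exceptions differed: ZFP42 was at 87.1 FPKM in MESO and 14.0 FPKM in NCSC, against 91.5 and 98.0 FPKM in hESC, and did not pass in MESO. SOX2 and LIN28A, an RNA-binding repressor of let-7, did not pass in NCSC. LIN28A was at 125 FPKM in MESO and 274 FPKM in NCSC, against 413 and 446 FPKM in hESC. DNMT3B, a DNA methyltransferase of stem cells, fell in both, to 89.3 FPKM in MESO and 26.6 FPKM in NCSC, against 893 and 930.3 FPKM in hESC.

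Genes with opposite calls included vascular receptors that rose in MESO and ZIC factors that rose in NCSC. KDR, the VEGF receptor of vascular and cardiac progenitors, rose to 55.9 FPKM in MESO and fell to 0.437 FPKM in NCSC, against 6.75 and 7.02 FPKM in hESC. FLT1, another VEGF receptor, was at 90.2 FPKM in MESO and 0.154 FPKM in NCSC, against 18.7 and 20.0 FPKM in hESC. NTS, the precursor of neurotensin, was at 228 FPKM in MESO and 0.953 FPKM in NCSC, against 22.5 and 26.1 FPKM in hESC. In the other direction ZIC2, a zinc finger factor of the dorsal neural plate, was at 0.885 FPKM in MESO and 123 FPKM in NCSC, against 13.5 and 13.7 FPKM in hESC. FGFBP3, a carrier of FGF ligands, was at 8.31 FPKM in MESO and 649.8 FPKM in NCSC, against 58.9 and 59.9 FPKM in hESC. ZIC5, the neighbour of ZIC2, was at 0.213 FPKM in MESO and 16.0 FPKM in NCSC, against 3.32 and 3.51 FPKM in hESC. These genes were expressed in hESC at intermediate levels, which a choice by large opposite changes asks for.

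WNT targets and feedback genes differed among themselves. Of 20 measured of 23 listed, 9 rose and 1 fell in MESO, and 7 rose and 4 fell in NCSC; 8 were higher in MESO by at least 1 and 5 higher in NCSC. The median difference was -0.38, against 0.04 over all genes. SP5, a transcription factor induced directly by beta-catenin, was at 5.54 FPKM in MESO and 82.0 FPKM in NCSC, against 1.01 and 0.885 FPKM in hESC (difference -4.03). NKD1, a feedback inhibitor that binds Dishevelled, was at 7.56 FPKM in MESO and 27.3 FPKM in NCSC, against 0.970 and 1.04 FPKM in hESC. DKK1, a secreted inhibitor of the WNT co-receptor, was at 21.3 FPKM in MESO and 1.89 FPKM in NCSC, against 1.36 and 1.48 FPKM in hESC. NOTUM, an enzyme that inactivates WNT ligands, was at 27.4 FPKM in MESO and 3.73 FPKM in NCSC, against 2.39 and 2.38 FPKM in hESC. AXIN2, a feedback scaffold often used as a WNT reporter, passed in neither table, at 17.4 FPKM in MESO and 29.6 FPKM in NCSC, against 17.4 and 18.5 FPKM in hESC. SP5 and NKD1 were thus the higher in NCSC, and DKK1 and NOTUM the higher in MESO.

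The promoter of SP5 is shown because SP5 rose in both derivatives and had one of the widest differences among WNT targets. The sequence spans 250 bases before to 50 bases after the start of the gene (RefSeq, GRCh38.p14, chr2:170715087-170715386, plus strand), with matches to the TCF/LEF motif in capitals. The letters searched were CTTTGAA and CTTTGAT on both strands, and the 3 matches begin 148, 109 and 84 bases before the start.
SP5: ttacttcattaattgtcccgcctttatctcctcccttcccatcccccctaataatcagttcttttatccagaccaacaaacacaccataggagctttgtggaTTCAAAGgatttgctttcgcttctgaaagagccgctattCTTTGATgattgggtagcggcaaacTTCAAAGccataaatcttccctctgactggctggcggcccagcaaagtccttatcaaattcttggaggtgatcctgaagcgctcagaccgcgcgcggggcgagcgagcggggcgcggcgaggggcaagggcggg
Of 35116 promoters of this length in the same table, 2409 (6.86%) hold at least 1 match. Of the WNT list 12 genes have a promoter in that table, and 4 hold a match, CDX2, DKK1, SP5 and SP8. A gene counted here if any of its promoters held a match, so this count is not in the same unit as the share. CDX2 and SP8 were at 5.18 and 0.407 FPKM in MESO and at 6.51 and 5.79 FPKM in NCSC. The genes with a match therefore lay on both sides, with DKK1 higher in MESO and SP5 and SP8 higher in NCSC. A match describes letters only and is not evidence of binding.

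WNT ligands were mostly the higher in MESO. Of 11 measured of 19 listed, 5 rose and none fell in MESO, 3 rose and 2 fell in NCSC, and 7 were higher in MESO by at least 1 against 1 in NCSC. WNT5A, a ligand of the beta-catenin-independent branch, was at 51.0 FPKM in MESO and 3.04 FPKM in NCSC, against 0.760 and 1.03 FPKM in hESC, and rose in both. WNT6, a ligand expressed in embryonic ectoderm, was at 25.3 FPKM in MESO and 0.103 FPKM in NCSC and passed in neither table. WNT8A, a ligand of the early streak, was the only one past the limit the other way, at 0.729 FPKM in MESO and 8.55 FPKM in NCSC. The receptor FZD7 was at 25.8 FPKM in MESO and 106 FPKM in NCSC, against 104 and 108 FPKM in hESC, and it fell in MESO and did not pass in NCSC. Of the 11 ligands 7 lay below 1 FPKM in hESC and entered through the derivative in which they were high, so their count has no weight of its own.

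Most BMP targets rose in MESO, and few did in NCSC. Of 18 measured of 19 listed, 16 rose and none fell in MESO, while 4 rose and 5 fell in NCSC; 16 were higher in MESO by at least 1, none was higher in NCSC, and the median difference was 4.11. ID1, an inhibitor of basic helix-loop-helix factors and a direct SMAD target, was at 442 FPKM in MESO and 13.1 FPKM in NCSC, against 250.1 and 249.5 FPKM in hESC, and fell in NCSC. ID2 was at 254 FPKM in MESO and 16.0 FPKM in NCSC, against 16.2 and 17.6 FPKM in hESC. BAMBI, a decoy receptor that is also a WNT target, was at 509 FPKM in MESO and 1.12 FPKM in NCSC, against 13.3 and 14.1 FPKM in hESC. The homeobox gene MSX2 was at 147 FPKM in MESO and 2.28 FPKM in NCSC, against 1.02 and 1.12 FPKM in hESC. SMAD7, an inhibitory SMAD, was at 48.3 FPKM in MESO and 0.923 FPKM in NCSC, against 7.37 and 7.66 FPKM in hESC, and it rose in MESO and fell in NCSC. The secreted BMP antagonist NOG was at 67.9 FPKM in MESO and 1.80 FPKM in NCSC, against 0.184 and 0.180 FPKM in hESC, and rose in both. ID3 and GREM1 were the 2 members within the limit, with ID3 at 171 FPKM in MESO and 108 FPKM in NCSC, against 51.8 and 53.2 FPKM in hESC. Below 1 FPKM in hESC lay 9 of the 18 members, which passed the minimum through a derivative in which they were high. Their part of these counts has no weight of its own. Over all genes 20.3% fell in NCSC. MESO received BMP-4 and NCSC did not, and the part of BMP-4 in these values was not tested.

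SMAD6, another inhibitory SMAD that BMP induces, was at 54.8 FPKM in MESO and 2.80 FPKM in NCSC, against 2.96 and 2.95 FPKM in hESC, and it rose in MESO and did not pass in NCSC. Its promoter is shown because it alone among the BMP targets with a promoter in the table holds the SMAD palindrome GTCTAGAC, written in capitals, 12 to 5 bases before the start (RefSeq, GRCh38.p14, chr15:66701986-66702285, plus strand).
SMAD6: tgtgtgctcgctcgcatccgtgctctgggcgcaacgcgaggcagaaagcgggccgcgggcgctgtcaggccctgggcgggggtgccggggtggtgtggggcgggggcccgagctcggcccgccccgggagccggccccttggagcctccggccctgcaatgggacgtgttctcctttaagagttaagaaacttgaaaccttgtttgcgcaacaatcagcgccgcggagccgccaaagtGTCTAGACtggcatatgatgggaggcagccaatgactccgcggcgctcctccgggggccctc
The palindrome occurs in 71 of the 35116 promoters (0.202%). Counted by gene, 1 of the 15 BMP targets with a promoter in that table has it in any of its promoters. The other 14 had no match in this window, which says only that these letters are not in it.

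**Figure D2:**
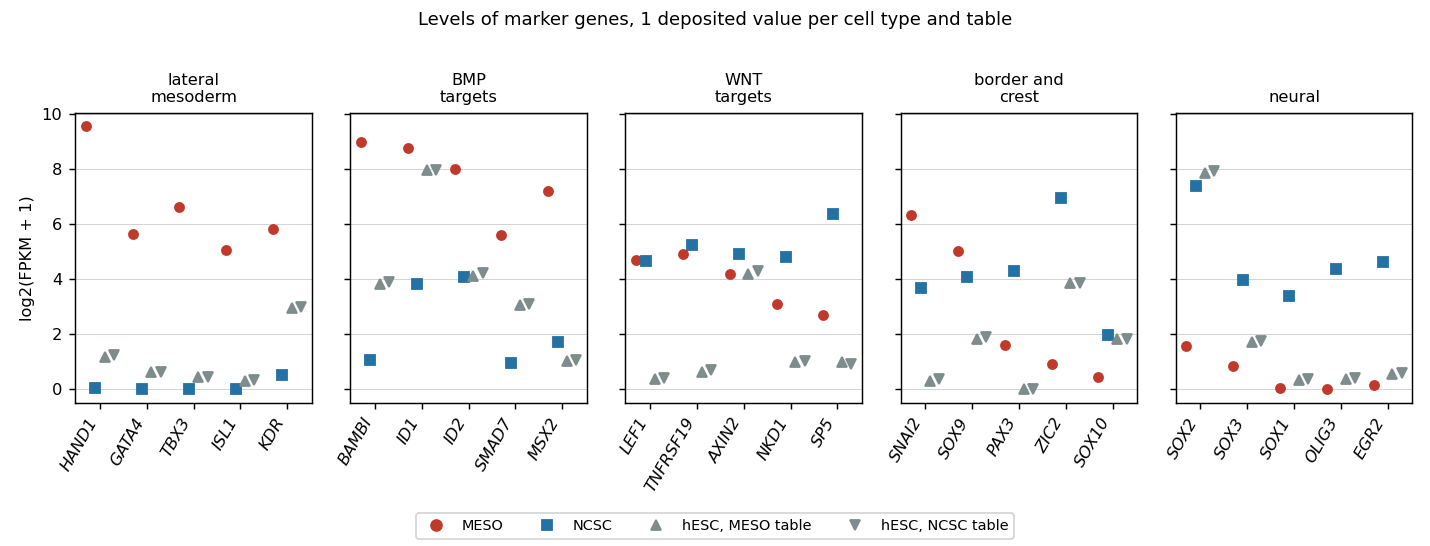
Levels as log2(FPKM + 1) of 25 genes in 5 groups (lateral mesoderm, BMP targets, WNT targets, border and crest, neural) in MESO (circles), NCSC (squares) and hESC of each table (triangles), 1 deposited value per point. MESO lie above NCSC for the lateral mesoderm and BMP genes, both lie together for LEF1, and NCSC lie above MESO for the neural genes.

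Central NODAL genes were low in both derivatives. Of 13 measured of 15 listed, 2 rose and 5 fell in MESO, and none rose and 5 fell in NCSC; 8 were higher in MESO by at least 1 and 1 in NCSC. NODAL itself was at 0.947 FPKM in MESO and 0.556 FPKM in NCSC, against 11.4 and 12.1 FPKM in hESC. TDGF1, the NODAL co-receptor, was at 2.55 FPKM in MESO and 0.0678 FPKM in NCSC, against 253 and 276 FPKM in hESC, and passed in MESO only. SKIL, a repressor of SMAD signalling that activin induces, was at 28.0 FPKM in MESO and 0.692 FPKM in NCSC, against 38.8 and 45.8 FPKM in hESC, and fell in NCSC. The core ligand and co-receptor thus lay far below hESC in either derivative, while SKIL stood near its hESC level in MESO.

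FGF and ERK targets differed less. Of 18 measured of 19 listed, 4 rose and none fell in MESO, 4 rose and 5 fell in NCSC, and the median difference was 0.31. EGR1, an immediate early gene, was at 33.9 FPKM in MESO and 32.3 FPKM in NCSC, against 32.9 FPKM in both hESC columns. DUSP5, a nuclear ERK phosphatase, was at 34.0 FPKM in MESO and 4.08 FPKM in NCSC, against 4.48 and 4.53 FPKM in hESC. MYC, a growth regulator downstream of WNT and ERK, was at 25.7 FPKM in MESO and 3.39 FPKM in NCSC, against 34.4 and 36.3 FPKM in hESC, and fell in NCSC. MESO, NCSC and hESC all received FGF at the same dose, and its part in these values was not tested.

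NOTCH pathway genes lay on both sides. Of 16 measured of 19 listed, 3 rose and 4 fell in MESO, 5 rose and 3 fell in NCSC, 2 were higher in MESO by at least 1 and 7 in NCSC, with a median difference of -0.93. DLL1, a ligand, was at 2.63 FPKM in MESO and 25.5 FPKM in NCSC, against 4.93 and 4.98 FPKM in hESC. LFNG, a glycosyltransferase that tunes the receptor, was at 2.58 FPKM in MESO and 19.4 FPKM in NCSC, against 11.2 and 11.7 FPKM in hESC. DLK1, an atypical ligand expressed in many embryonic progenitors, was at 11.8 FPKM in MESO and 545 FPKM in NCSC, against 2.14 and 2.27 FPKM in hESC, and rose in both. HEY1, a repressor that BMP also induces, went the other way, at 33.7 FPKM in MESO and 0.631 FPKM in NCSC, against 0.626 and 0.674 FPKM in hESC.

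Retinoic acid genes held both ends. Of 14 measured of 16 listed, 3 rose and 2 fell in MESO and 4 rose and 3 fell in NCSC. The enzyme ALDH1A2, which makes retinoic acid in mesoderm, was at 8.36 FPKM in MESO and 0.0705 FPKM in NCSC, against 0.188 and 0.206 FPKM in hESC. The binding protein CRABP2 was at 231 FPKM in MESO and 546 FPKM in NCSC, against 136 and 139 FPKM in hESC, and STRA6, the retinol uptake receptor, at 15.1 FPKM in MESO and 42.4 FPKM in NCSC, against 3.83 and 3.56 FPKM in hESC. With CRABP1, the binding and uptake proteins were thus the higher in NCSC and ALDH1A2 the higher in MESO.

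Splanchnic and cardiac mesoderm genes were nearly all higher in MESO. Of 25 measured of 27 listed, 19 rose and none fell in MESO, while 2 rose and 6 fell in NCSC, and 24 were higher in MESO by at least 1, with a median difference of 3.44. GATA4, a factor of heart and gut mesoderm, was at 49.3 FPKM in MESO and 0.00681 FPKM in NCSC, against 0.549 and 0.544 FPKM in hESC. TBX3 was at 98.2 FPKM in MESO and 0.0190 FPKM in NCSC, ISL1, a factor of cardiac progenitors, at 32.2 FPKM in MESO and listed at 0 in NCSC. NKX2-5, a core cardiac factor, was at 15.0 FPKM in MESO and 0.209 FPKM in NCSC, against 0.653 and 0.628 FPKM in hESC. BMP4 was at 110 FPKM in MESO and 3.27 FPKM in NCSC, against 14.1 and 15.0 FPKM in hESC, and fell in NCSC. MEIS2, a homeobox cofactor of many embryonic tissues, was the exception within the limit, at 11.1 FPKM in MESO and 13.6 FPKM in NCSC, and rose in both. Of the 25 members 17 lay below 1 FPKM in hESC and passed the minimum through a derivative in which they were high, so the counts have no weight of their own. The 6 falls in NCSC lie near the share over all genes, 20.3%.

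The factors T and TBX6, which define the primitive streak and presomitic mesoderm, were at low levels in both. T, or brachyury, the factor of the primitive streak, was at 3.09 FPKM in MESO and 0.0779 FPKM in NCSC, against 0.579 and 0.570 FPKM in hESC, and did not pass in MESO. TBX6, a factor of presomitic mesoderm, was at 2.04 FPKM in MESO and 1.66 FPKM in NCSC, against 3.13 and 2.53 FPKM in hESC. Of 11 streak genes measured of 14 listed, 2 rose and 1 fell in MESO, and 1 rose and 4 fell in NCSC. By at least 1, 5 of the streak genes were higher in MESO and 1 in NCSC, and 5 of the 11 lay below 1 FPKM in hESC. Of 8 paraxial genes measured of 17 listed, 1 rose and 2 fell in MESO, 2 rose and 1 fell in NCSC, none was higher in MESO by at least 1 and 5 were higher in NCSC. These included DLL1 and LFNG, which are NOTCH genes as well.

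Neural plate border genes split within the list. Of 15 measured of 18 listed, 8 were higher in MESO and 7 higher in NCSC by at least 1 and none lay between. In MESO 8 rose and 3 fell, and in NCSC 6 rose and 2 fell. Below 1 FPKM in hESC lay 7 of the 15, which passed the minimum through a derivative in which they were high. Their part of these counts has no weight of its own. Those higher in NCSC included PAX3, ZIC2, ZIC5, GBX2, HES4 and SP5, most of which mark dorsal neural plate and its posterior border. Those higher in MESO were MSX1, MSX2, DLX3, DLX5, DLX6, TFAP2A, TFAP2C and KLF5, of which the DLX and TFAP2 genes also mark non-neural ectoderm. MSX1 was at 47.7 FPKM in MESO and 1.46 FPKM in NCSC, against 0.194 and 0.197 FPKM in hESC, and rose in both. The list's median of 2.03 is set by this split, and it is -0.015 over the 12 members that passed in at least 1 table and -2.05 over the 10 members off chromosomes 5 to 9 and X.

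Crest specifiers were mixed. Of 16 measured of 18 listed, 6 rose and 4 fell in MESO, 5 rose and 5 fell in NCSC, 7 were higher in MESO by at least 1 and 4 in NCSC. SOX9, a crest and cartilage factor, was at 31.9 FPKM in MESO and 16.1 FPKM in NCSC, against 2.58 and 2.72 FPKM in hESC, and rose in both. TWIST1, a factor of crest and mesodermal mesenchyme, was at 15.6 FPKM in MESO and 0.336 FPKM in NCSC, against 0.192 and 0.190 FPKM in hESC. NGFR, the low-affinity neurotrophin receptor used to sort crest cells, was at 1.89 FPKM in MESO and 12.9 FPKM in NCSC, against 6.05 and 5.79 FPKM in hESC, and fell in MESO while it rose in NCSC. ETS1 was at 27.0 FPKM in MESO and 3.31 FPKM in NCSC, against 24.0 and 26.6 FPKM in hESC, and fell in NCSC. Of the border and crest genes, NGFR, ZIC2, ZIC5 and GBX2 rose in NCSC and did not rise in MESO.

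Many neural progenitor and hindbrain genes were the higher in NCSC. Of 12 neural progenitor genes measured of 22 listed, 3 rose and 3 fell in MESO, 8 rose and none fell in NCSC, 8 were higher in NCSC by at least 1 and none in MESO, with a median difference of -2.24. SOX1, the first factor of the committed neural plate, was at 0.0271 FPKM in MESO and 9.56 FPKM in NCSC, against 0.269 and 0.284 FPKM in hESC. SOX3, its relative in neural progenitors, was at 0.787 FPKM in MESO and 14.9 FPKM in NCSC, against 2.32 and 2.42 FPKM in hESC. NCAM1 rose in both, at 6.80 FPKM in MESO and 6.67 FPKM in NCSC, against 0.384 and 0.455 FPKM in hESC. Of 10 midbrain and hindbrain genes measured of 20 listed, 1 rose and 2 fell in MESO, 5 rose and 1 fell in NCSC, and 7 were higher in NCSC by at least 1 against 1 in MESO. Below 1 FPKM in hESC lay 4 of the 12 neural progenitor genes and 4 of the 10 midbrain and hindbrain genes. These passed the minimum through a derivative in which they were high, so their part of the counts has no weight of its own. EGR2, a factor of hindbrain segments also called KROX20, was at 0.129 FPKM in MESO and 23.6 FPKM in NCSC, against 0.479 and 0.502 FPKM in hESC. GBX2, which marks anterior hindbrain, was at 0.299 FPKM in MESO and 13.6 FPKM in NCSC, against 0.912 and 0.897 FPKM in hESC. OTX2, a forebrain and midbrain factor, fell in both, to 1.25 FPKM in MESO and 0.0376 FPKM in NCSC, against 20.6 and 22.5 FPKM in hESC.

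HOX genes, which pattern the trunk in order of their place in each cluster, were below 1 FPKM in hESC in all 16 members measured of 39 listed. Another 14 stayed below 1 FPKM in all columns and 9 lay in loci the authors merged. HOXB1, an anterior gene of the hindbrain, was at 3.54 FPKM in MESO and 26.9 FPKM in NCSC, and HOXA2 at 0.0471 FPKM in MESO and 4.80 FPKM in NCSC. HOXB6 was at 34.7 FPKM in MESO and 0.397 FPKM in NCSC, and HOXA13, the most posterior gene of its cluster, at 13.6 FPKM in MESO and listed at 0 in NCSC. HOXB9 did not follow this order, at 14.8 FPKM in MESO and 21.5 FPKM in NCSC. The anterior members HOXA2, HOXA3 and HOXB1 were past the limit towards NCSC, and 10 members of number 5 or higher were past it towards MESO. All 16 members passed the minimum through a derivative, so these counts have no weight of their own. Most did not pass in the authors' deposited tables: 2 rose in MESO and 4 rose in NCSC. Over the 5 members that passed in at least 1 table the median difference was -0.78, against 1.21 over all 16. CDX2, a trunk factor upstream of HOX genes, was at 5.18 FPKM in MESO and 6.51 FPKM in NCSC, with 0.00855 and 0.00943 FPKM in hESC, and passed in neither.

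**Figure D3:**
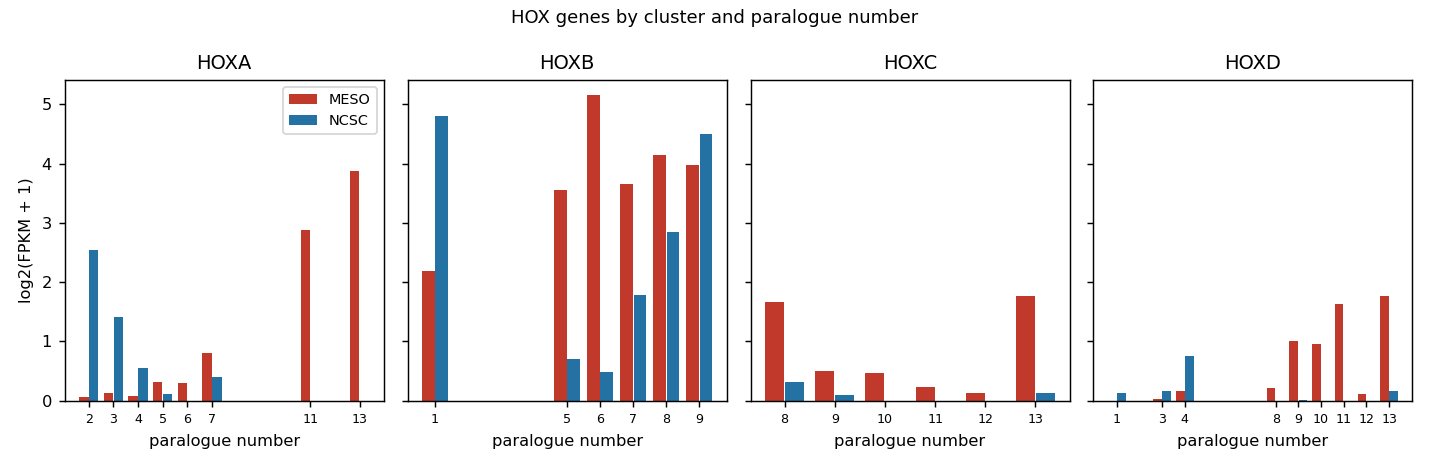
Level as log2(FPKM + 1) of HOX genes in MESO (red bars) and NCSC (blue bars), by cluster and paralogue number, 1 deposited value per bar; genes in merged loci are left out, and not every other gene is drawn. HOXA2, HOXA3 and HOXB1 are higher in NCSC, HOXB6, HOXA11 and HOXA13 higher in MESO, and HOXB9 is high in both.

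Most epithelial genes fell in NCSC, while in MESO some rose and most of the others did not pass. Of 30 listed and measured, 13 rose and 1 fell in MESO, whereas 1 rose and 23 fell in NCSC; 26 were higher in MESO by at least 1, none was higher in NCSC, and the median difference was 2.70. CDH1, E-cadherin (hg19 chr16:68771142-68870891 in the MESO table), was at 137 FPKM in MESO and 0.823 FPKM in NCSC, against 79.2 and 83.6 FPKM in hESC. Its q-value was 0.267 in MESO and 0.000455 in NCSC in the authors' deposited tables. EPCAM, an adhesion molecule of epithelia and stem cells, was at 143 FPKM in MESO and 19.1 FPKM in NCSC, against 138 and 149 FPKM in hESC. The keratins of simple epithelia were among the most abundant, with KRT8 at 987 FPKM in MESO and 38.8 FPKM in NCSC, against 89.4 and 90.3 FPKM in hESC. KRT18, its partner, was at 712 FPKM in MESO and 24.2 FPKM in NCSC, against 80.0 and 82.0 FPKM in hESC. GRHL2, a transcription factor that maintains epithelial junctions, was at 17.8 FPKM in MESO and 0.215 FPKM in NCSC, against 6.50 and 6.85 FPKM in hESC. ESRP1, which directs epithelial splicing, fell in both, to 30.5 FPKM in MESO and 0.500 FPKM in NCSC, against 76.3 and 85.3 FPKM in hESC. DSP, desmoplakin, was the only member that rose in both, at 138 FPKM in MESO and 46.1 FPKM in NCSC, against 19.1 and 18.9 FPKM in hESC.

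Mesenchymal genes differed by member. Of 22 matrix and cytoskeleton genes measured of 23 listed, 18 rose and none fell in MESO, 11 rose and 2 fell in NCSC, and 14 were higher in MESO by at least 1 against 2 in NCSC. VIM, the mesenchymal intermediate filament, rose in both, at 1026 FPKM in MESO and 629 FPKM in NCSC, against 86.7 and 88.4 FPKM in hESC. COL1A1 was at 549 FPKM in MESO and 329 FPKM in NCSC, against 92.3 and 89.8 FPKM in hESC, and COL1A2, the other chain of type I collagen, at 249 FPKM in MESO and 413 FPKM in NCSC, against 21.7 and 22.9 FPKM in hESC. FN1, fibronectin, was at 731 FPKM in MESO and 16.0 FPKM in NCSC, against 27.3 and 31.1 FPKM in hESC, and rose in MESO while it fell in NCSC. COL3A1, type III collagen, was at 202 FPKM in MESO and 0.0716 FPKM in NCSC, against 0.289 and 0.225 FPKM in hESC. Type I collagen and vimentin were thus shared, and fibronectin and type III collagen were not.

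Of 14 EMT factors listed and measured, 7 rose and none fell in MESO, 5 rose and 3 fell in NCSC, and 6 were higher in MESO by at least 1 against 1 in NCSC. Those that rose in NCSC, SNAI1, SNAI2, ZEB1, ZEB2 and SOX9, all rose in MESO as well. SNAI1 was at 25.7 FPKM in MESO and 10.4 FPKM in NCSC, against 5.33 and 5.34 FPKM in hESC. ZEB1, a direct repressor of CDH1, was at 0.852 FPKM in MESO and 6.70 FPKM in NCSC, against 0.0651 and 0.0778 FPKM in hESC, the only factor past the limit towards NCSC. ZEB2 was at 15.3 FPKM in MESO and 21.6 FPKM in NCSC, against 0.109 and 0.175 FPKM in hESC. PRRX1, a factor of lateral mesoderm mesenchyme, was at 10.2 FPKM in MESO and 0.0350 FPKM in NCSC and passed in neither. Cadherins differed by member. CDH2, N-cadherin, rose in both, at 70.8 FPKM in MESO and 39.0 FPKM in NCSC, against 14.0 and 15.7 FPKM in hESC. CDH3, P-cadherin, was at 79.5 FPKM in MESO and 3.98 FPKM in NCSC, against 66.5 and 64.3 FPKM in hESC, and fell in NCSC. CDH11, a cadherin of mesenchyme, was at 77.2 FPKM in MESO and 5.26 FPKM in NCSC, against 1.97 and 2.30 FPKM in hESC, and rose in both. CDH2 thus rose in both, while CDH1 fell in NCSC and did not pass in MESO.

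**Figure D4:**
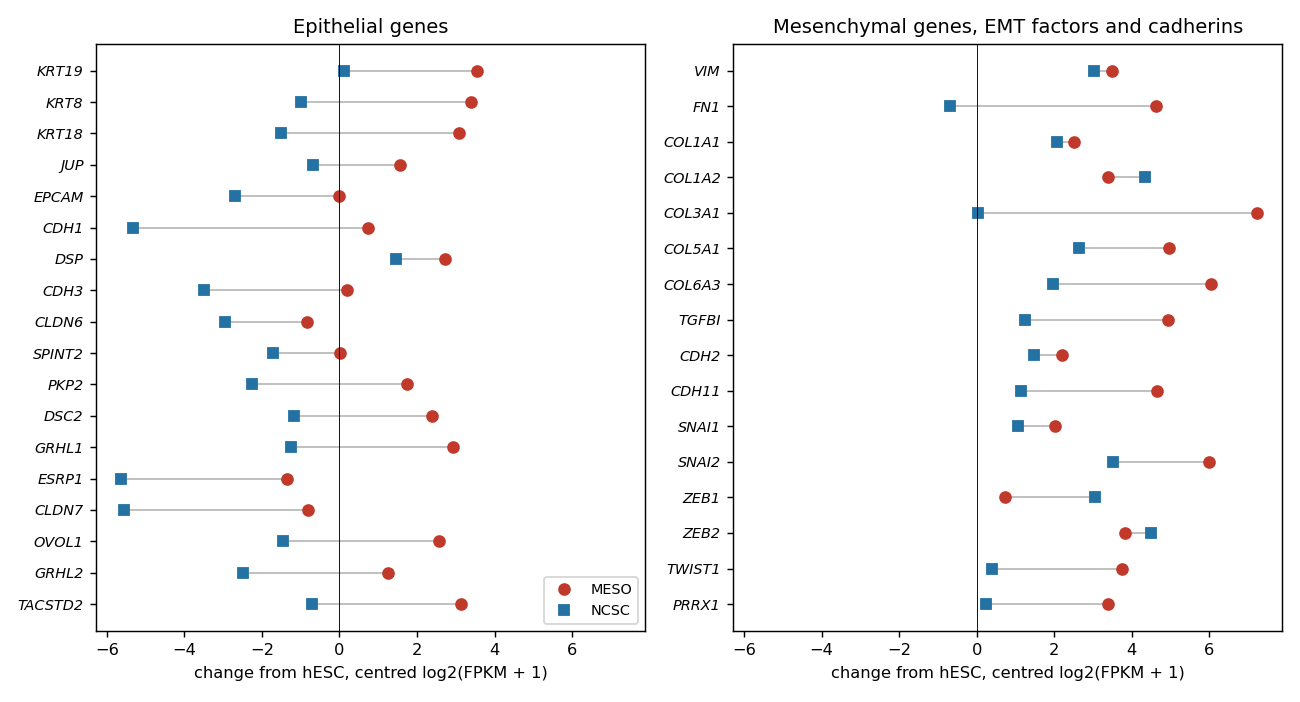
Change from hESC as centred log2(FPKM + 1) of 18 epithelial genes (left) and 16 mesenchymal genes, EMT factors and cadherins (right) in MESO (circles) and NCSC (squares), joined by a line per gene. All 18 epithelial genes shown are higher in MESO, by 1.27 for DSP and 6.05 for CDH1. The 18 are a choice, and CDH1 and CDH3 are not in the epithelial list of 30. Of that list 4 members lay within the limit, and its lowest difference was -0.28. VIM, COL1A1 and CDH2 differ by less than 1 towards MESO, and ZEB2 and COL1A2 by less than 1 towards NCSC. ZEB1 is past the limit towards NCSC.

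Contractile genes differed among themselves. Of 14 measured of 16 listed, 6 rose and 1 fell in MESO and 2 rose and 7 fell in NCSC. TPM1, tropomyosin 1, was at 942 FPKM in MESO and 42.9 FPKM in NCSC, against 338 and 363 FPKM in hESC. ACTA2, smooth muscle actin, rose in both, at 18.4 FPKM in MESO and 19.5 FPKM in NCSC, against 1.58 and 1.63 FPKM in hESC. MYOCD, a cofactor that drives smooth and cardiac muscle genes, was at 8.45 FPKM in MESO and 0.0173 FPKM in NCSC, against 0.357 and 0.305 FPKM in hESC.

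Guidance and Ephrin genes, which steer migrating cells and form boundaries, rose about as often in each. Of 29 measured of 33 listed, 14 rose and 2 fell in MESO, and 13 rose and 5 fell in NCSC. By at least 1, 8 were higher in MESO and 6 in NCSC. Over all genes 9.37% rose in MESO, 10.2% rose in NCSC and 20.3% fell in NCSC. NRP1, a receptor of semaphorins and VEGF, was at 52.0 FPKM in MESO and 1.63 FPKM in NCSC, against 2.73 and 2.61 FPKM in hESC. EFNA1, an ephrin ligand, was at 29.7 FPKM in MESO and 0.314 FPKM in NCSC, against 1.36 and 1.41 FPKM in hESC. EPHA4, a receptor of hindbrain segments, was at 4.18 FPKM in MESO and 26.1 FPKM in NCSC, against 1.51 and 1.62 FPKM in hESC. EFNB1, a ligand needed for crest migration in mouse, was at 19.6 FPKM in MESO and 77.3 FPKM in NCSC, against 1.64 and 1.66 FPKM in hESC. EPHB3 was at 13.7 FPKM in MESO and 16.0 FPKM in NCSC, against 1.20 and 1.18 FPKM in hESC.

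Markers of other cell types were counted in the same way. Of 15 trophoblast and amnion genes measured of 20 listed, 11 rose and none fell in MESO, none rose and 3 fell in NCSC, and all 15 were higher in MESO by at least 1. As 11 of the 15 lay below 1 FPKM in hESC and passed the minimum through a derivative in which they were high, these counts have no weight of their own. The 3 falls in NCSC lie near the share over all genes, 20.3%. Their summed level was 1589 FPKM in MESO and 5.53 FPKM in NCSC, against 10.6 and 11.1 FPKM in hESC, and IGFBP3, EPAS1 and GABRP held most of it. CGA, the shared subunit of chorionic gonadotropin, was at 95.3 FPKM in MESO and listed at 0 in NCSC and in hESC. GABRP, which amnion and trophoblast express, was at 229.8 FPKM in MESO and 0.0118 FPKM in NCSC, against 1.18 and 1.29 FPKM in hESC. GATA3, a trophoblast and amnion factor listed here as a BMP target, was at 114 FPKM in MESO and 0.0343 FPKM in NCSC, against 0.383 and 0.391 FPKM in hESC. TP63, a defining factor of the trophoblast and of surface ectoderm, was at 1.81 FPKM in MESO and 0.00697 FPKM in NCSC. ELF5, a trophoblast stem cell factor, CGB, ANXA8 and PSG1 were below 1 FPKM in every column, with ELF5 at 0.0760 FPKM in MESO and listed at 0 in NCSC. The list moved together with the BMP targets, the epithelial genes, the keratins and the splanchnic genes, and its part in their values was not tested.

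Of 11 endothelial and blood genes measured of 18 listed, 7 rose and none fell in MESO, and none rose and 4 fell in NCSC, with a summed level of 195 FPKM in MESO and 16.2 FPKM in NCSC, against 52.9 and 54.1 FPKM in hESC. Here too 6 of the 11 lay below 1 FPKM in hESC, and the counts carry no weight for that reason. RUNX1, a factor of blood progenitors, was at 8.41 FPKM in MESO and 0.0857 FPKM in NCSC. PECAM1, an adhesion molecule of mature endothelium, was below the minimum, at 0.0701 FPKM in MESO and 0.00814 FPKM in NCSC. CDH5, TAL1, GATA1, ERG, CD34 and VWF of the same list were also below 1 FPKM in every column, with CDH5 at 0.833 FPKM and TAL1 at 0.258 FPKM in MESO. Of 8 endoderm genes measured of 14 listed, 3 rose and 1 fell in MESO, and 1 rose and 2 fell in NCSC, where 20.3% of all genes fell. SOX17, a defining endoderm factor, was at 2.08 FPKM in MESO and listed at 0 in NCSC, against 1.26 and 1.36 FPKM in hESC, and FOXA2, another such factor, was at 0.190 FPKM in MESO and 0.112 FPKM in NCSC. Of 7 neuronal genes measured of 16 listed, 2 rose in MESO and 2 rose in NCSC, and 4 were higher in NCSC by at least 1. MAP2, a protein of neuronal microtubules, was at 2.03 FPKM in MESO and 15.7 FPKM in NCSC, against 0.699 and 0.737 FPKM in hESC. The parts of these cell types in the other results were not tested.

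**Figure D5:**
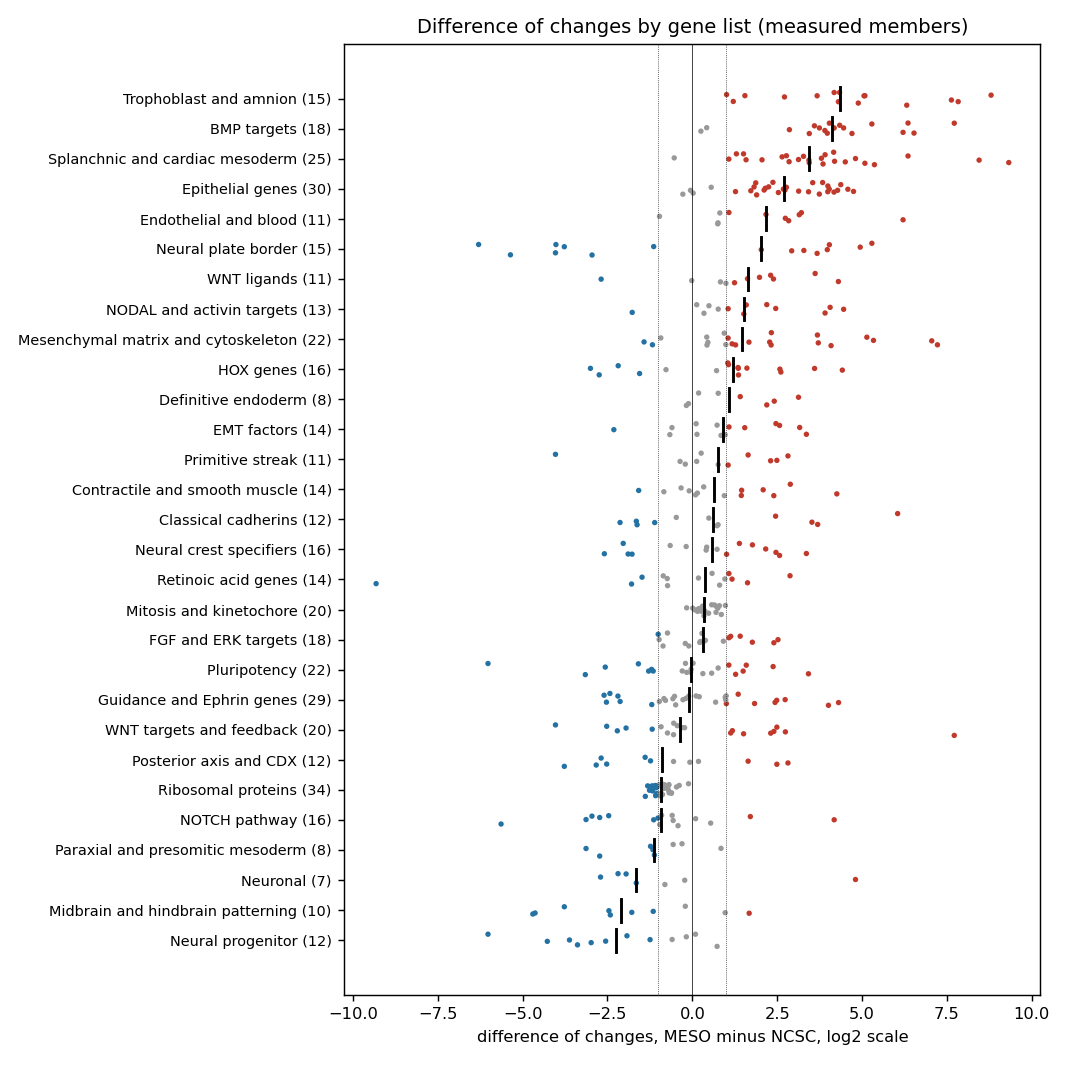
Difference of changes (MESO minus NCSC, log2 scale) of the measured members of 29 gene lists, 1 point per gene with the number of members in brackets, ordered by the list's median (black tick); red points are at least 1, blue points at most -1 and dotted lines mark these limits. Trophoblast and amnion genes, BMP targets, splanchnic genes and epithelial genes lie furthest to the right, and neural progenitor genes furthest to the left, while the border genes fall on both sides with none between the limits.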

How the data were processed

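The authors deposited 1 table per derivative with 1 FPKM value for the derivative and 1 for hESC, so the 2 libraries per cell type had been pooled or averaged by them. Cufflinks 2.2.1, TopHat2 2.0.13, featureCounts and Subread 1.5.2 with the build hg19 appear in the submitters' processing notes, which give no role for them. The authors deposited a signed score for the derivative against hESC as their statistic. Per the file headers each row has a p-value and q-value of that comparison, and the lowest q-value was 0.000868 for MESO and 0.000455 for NCSC. The sources used here give neither depth nor the scaling between cell types.

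There were 24464 rows for MESO and 28992 rows for NCSC. Rows off chromosomes 1 to 22 and X (1314 and 1356) and loci merged under several symbols (588 and 616) were left out, and of several rows of 1 symbol (145 and 1828 symbols) the one with the highest mean FPKM was kept. Set apart were 13 symbols where the FPKM ratio and the score had opposite signs, an FPKM had more than 6 significant digits, or, at a mean of at least 20 FPKM, the quotient of log2 ratio and score fell below 0.4 times its median in that table. They were GPI, HK1, LDHA, MIR4674, MIR622, PKLR, PKM, PSAT1, SLC2A1, SNORD116-25, TALDO1, TKT and UGP2.

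A change is the log2(FPKM + 1) value of MESO or NCSC less that of hESC in the same table, centred on the median over the genes kept; a minimum of 1 FPKM in 1 of 4 columns was asked. Neither limma nor any other test of MESO against NCSC could be run on 1 value per cell type. The calculation was tested on simulated data. Python 3.11.15, numpy 2.4.6, pandas 2.3.3 and matplotlib 3.10.9 were used.

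The members, the 29 gene lists (543 symbols, 424 measured) and the rules were chosen with earlier results of these data known. Named were the 12 highest and 12 lowest differences, the 8 leading genes of each kind that rose or fell in both or in opposite directions, up to 6 members per list and 12 markers; not every such gene is printed, and some are not reported here. Other genes in the text are list members or were chosen after their values were seen. Alternatives were the pseudocount, FPKM minimum, centring, limit, columns set directly, a common hESC column, quantile normalization, row choice and genes kept.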

Additional observations from a re-analysis of the deposited data

How the results depend on the processing

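No paired analysis was possible because each table holds 1 value per cell type, and for the same reason no library could be left out and no spread can be given. The counts of 1904 genes higher in MESO and 1676 higher in NCSC became 651 and 406 at a limit of 2, and 1084 and 638 with a pseudocount of 5. Without centring they were 2804 and 1102. Over genes that passed in 1 table or both, an alternative chosen after seeing the data, they were 1451 and 966. Without an FPKM minimum they were 2564 and 1230, or 67.6% higher in MESO. Under the other 11 alternatives both counts stayed within 1.5 times. The difference of MIR302D turned to -0.21 with the MESO and NCSC columns set directly and to -0.17 with a common hESC column. The median difference of the neural plate border list turned to -0.015 over genes that passed in 1 table or both and to -2.05 off chromosomes 5 to 9 and X, where the NCSC table splits symbols into more rows; that of the HOX genes turned to -0.78 over genes that passed. Of the 187 named genes and 29 lists, no other that was past the limit changed sign. List medians ranged from 2.95 to 5.05 for BMP targets, from 2.14 to 3.63 for epithelial genes, from 1.61 to 5.87 for splanchnic genes and from -2.93 to -1.32 for neural progenitor genes. The cause of these movements was not tested. FPKM near 0 cannot be separated from 0 without the depth.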

Other observations

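Ribosomal protein genes lay towards NCSC, and no mitosis or kinetochore gene was past the limit. A difference of at most -1 was found in 12.4% of all genes. Of 34 ribosomal protein genes measured, none passed in MESO and 5 rose in NCSC, all 34 had a negative difference, and 12 were at most -1, with a median of -0.91 and a range of medians over the alternatives from -1.21 to -0.47. RPL3 was at 555 FPKM in MESO and 1183 FPKM in NCSC, against 681 and 703 FPKM in hESC. Ribosomal protein genes have many processed copies in the genome, so reads can be shared between them. Of 20 mitosis and kinetochore genes, none rose and 1 fell in MESO, none rose and 11 fell in NCSC, and none was past the limit. CDK1, the kinase that starts mitosis, was at 130 FPKM in MESO and 63.7 FPKM in NCSC, against 92.3 and 108 FPKM in hESC, and fell in NCSC.

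Several genes with wide differences fall outside the lists and were chosen after their values were seen. CHCHD2, a mitochondrial protein gene, was at 0.598 FPKM in MESO and 45.1 FPKM in NCSC, against 0.284 and 0.303 FPKM in hESC. CAT, the gene of catalase, was at 0.0721 FPKM in MESO and 22.9 FPKM in NCSC, against 0.0821 and 0.147 FPKM in hESC. IGFBP5, another binding protein of insulin-like growth factors, rose in both, at 15.6 FPKM in MESO and 268 FPKM in NCSC, against 0.774 and 0.813 FPKM in hESC, while IGFBP3 was the higher in MESO. HGF, a growth factor of mesenchyme, was at 96.6 FPKM in MESO and 0.0257 FPKM in NCSC, against 0.271 and 0.162 FPKM in hESC. FOXB1, a forkhead factor of the posterior neural plate, was at 0.0881 FPKM in MESO and 55.0 FPKM in NCSC, against 0.866 and 0.684 FPKM in hESC. HES3, a NOTCH-type repressor of neural progenitors, was listed at 0 in MESO and at 23.1 FPKM in NCSC, against 38.5 FPKM in both hESC columns.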
